A study of Drosophila melanogaster with 12 samples.

Results

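The chromatin accessibility of 4 Drosophila melanogaster genes of the unfolded protein response, Ire1, Xbp1, Calr and Herp, was read from ATAC-seq counts, in which the Tn5 transposase inserts adapters into open DNA. Their regions were those overlapping a gene span or lying within 1000 bp of it, whatever their reads. There were 6 such regions: of 3447 regions labelled fat body 1 was at these genes, and of 2906 labelled gut 5 were. All flies were adult females of the genotype S106_UASfoxo, so control and induced flies alike carried the S106 driver, which the steroid RU486 activates, and UAS-foxo. All were reared on food with 10% yeast and 5% sucrose and, per the protocol given for every library, had mated for 48 h before the males were removed. Switched flies ate 200 µM RU486 for 21 days and then control food for 7 days, and control flies are labelled RU486-. Each of the 4 groups, control and switched flies of either tissue, had 3 libraries. No group ate RU486 without UAS-foxo, so the drug and the induction of foxo cannot be told apart. The labels do not say whether libraries of a group came from separate flies, and the p-values measure the spread between these libraries.

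When unfolded proteins accumulate in the endoplasmic reticulum, the membrane kinase and endoribonuclease Ire1 splices the mRNA of Xbp1 in an unconventional way. The spliced mRNA encodes a bZIP transcription factor that activates genes of chaperones and of protein degradation. Calr encodes calreticulin, a calcium-binding lectin that helps glycoproteins fold in the endoplasmic reticulum. Herp encodes a ubiquitin-like membrane protein that, in mammals, takes part in the degradation of misfolded proteins. ATAC-seq counts report how open the DNA of these genes was, and say nothing of the splicing of Xbp1. In dissected tissue, fewer cells of a type and less open DNA per cell cannot be told apart.

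Most counts were mitochondrial, 75.8% to 88.6% in the libraries labelled fat body and 69.2% to 87.6% in those labelled gut. Counts on the chromosome arms, which bear on the 4 genes, ranged from 77983 to 148529 per library labelled fat body and from 15803 to 132196 labelled gut. In the former every switched library had more arm counts (at least 100467) than every control library (at most 99026). The gut libraries numbered 1 were the shallowest, with 23730 arm counts in control and 15803 in switched flies. Tissue markers lay against the labels. The table labelled gut had regions at 8 of 10 fat body markers, such as apolpp and FASN1, and at 0 of 13 gut markers. The table labelled fat body had regions at 8 of 13 gut markers, such as GATAe, and at 3 of 10 fat body markers. Both tables are named here by their labels alone, with the word labelled kept.

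No member had a region in both tables. Xbp1 had 1 region, in the table labelled fat body (2R, 21144990 to 21145059, 70 bp), inside its span and 726 bp from the nearest gene end by its midpoint. In the table labelled gut the region nearest to Xbp1 lay 14277 bp away. Ire1 had 2 regions in the table labelled gut. The first (3R, 19859816 to 19859996, 181 bp) lay inside the span, 1385 bp from its end. The other (3R, 19861247 to 19861328, 82 bp) straddled that end, with 45 bp inside, and lay 282 bp from the next gene, Mrm2. Calr had 1 region in the table labelled gut (3R, 9630875 to 9631023, 149 bp), 24 bp outside its span and 618 bp from SpdS. Herp had 2 regions there, one inside the span and 290 bp from its end (2L, 7799680 to 7799856, 177 bp), the other 14 bp outside (2L, 7800072 to 7800153, 82 bp). The latter overlapped the neighbouring gene r2d2 by 7 bp, so its reads cannot be assigned to Herp alone. The build of these coordinates is not named in the sources used here. Genes were taken from Release 6, which the regions labelled gut matched.

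**Figure D1:**
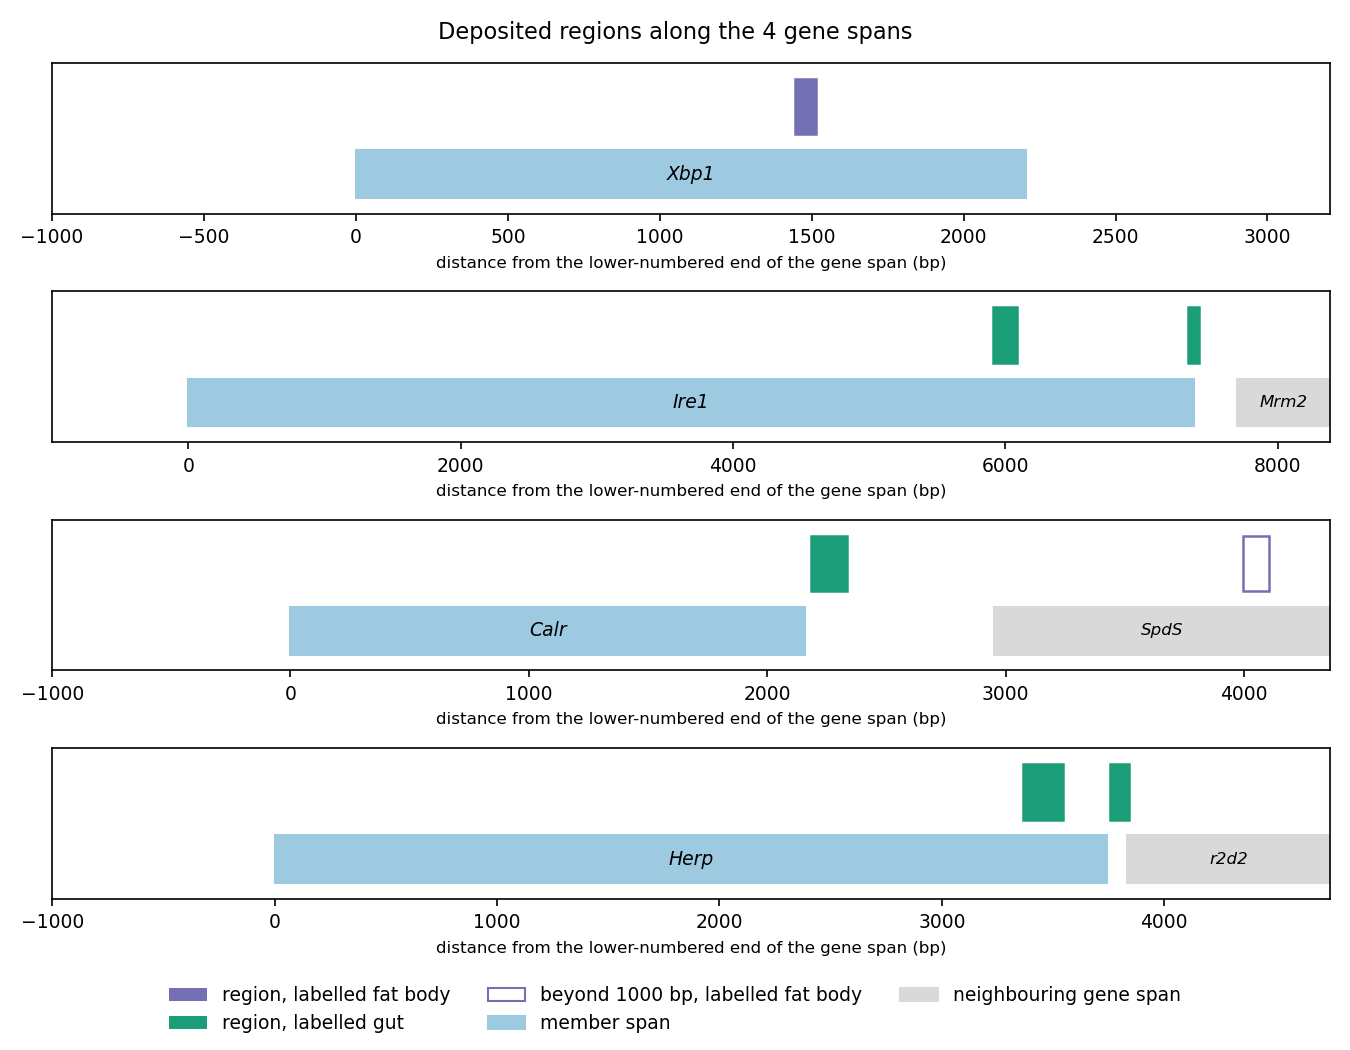
The deposited regions along the spans of Xbp1, Ire1, Calr and Herp, with distance in bp from the lower-numbered end of each span on the horizontal axis. Filled boxes are the 6 regions within 1000 bp, the open box is a region 1838 bp from Calr in the table labelled fat body, and grey bars are neighbouring genes. In the table labelled gut, Ire1, Calr and Herp each had a region within 24 bp of the span's higher-numbered end or across it.

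Of the 5 regions labelled gut, 4 were centred no more than 500 bp from an end of the member's span. The same held, for an end of any protein-coding gene, at 51.3% of the regions on the arms of that table that were chosen by the same distance of 1000 bp. The annotation used here holds no strands or exons, so a start cannot be told from an end, nor an exon from an intron. All 6 regions passed the filter on low counts, which kept 1674 of 3447 regions labelled fat body and 1944 of 2906 labelled gut. The region of Xbp1 passed it through the switched libraries alone, with 10, 34 and 54 counts against 0, 9 and 0 in control. It thus entered the test through the group where it is high.

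Switched and control flies were compared to ask whether past induction of foxo left a trace at these genes 7 days after it had ended. Of the 6 member regions edgeR called 0, in tables where it called 0% of all tested regions, and DESeq2 called 0 as well, in tables where it called 3.17% labelled fat body and 0% labelled gut. The values of single libraries follow by the role of each gene.

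Ire1, the sensor, had regions with counts that scattered within both groups. In control replicates 1 to 3 labelled gut, the region inside the span had 0, 52 and 40 counts, and in switched replicates 1 to 3 it had 25, 77 and 3. Normalised counts (CPM, per 1000000 counts of a library after TMM scaling) averaged 67.4 ± 58.4 over the control and 89.1 ± 71.2 over the switched libraries (SD, n = 3). Control replicate 1 and switched replicate 3 were low, and the groups overlapped. The log2 fold change of switched against control was 0.38 ± 1.57 (SE; edgeR adjusted p = 0.999), and it turned to -0.23 without control replicate 1, to -0.08 without switched replicate 1 and to -0.06 without switched replicate 2. The region at the end of the span was read 1, 2 and 51 times in control libraries and 7, 15 and 4 times in switched libraries. Only control replicate 3 exceeded 15 counts, and the groups overlapped. Its log2 fold change was -0.90 ± 1.87 (edgeR adjusted p = 0.999), and without control replicate 3 it became 2.27. With the replicate number as a block it was 0.86 ± 2.50 (edgeR adjusted p = 0.993). The balance between both regions of Ire1 differed from library to library: in control replicate 2 the inner region held 52 counts against 2 at the end, and in control replicate 3 it held 40 against 51. With both regions summed, Ire1 had control counts of 1, 54 and 91 and switched counts of 32, 92 and 7. The sum differed by a log2 fold change of 0.25 ± 1.17 (edgeR adjusted p = 0.998 over all genes), and by -0.29 without control replicate 1 and -0.47 without switched replicate 1.

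Xbp1, whose mRNA Ire1 splices, had the largest fold change of the 6 regions, and it did not pass the test. That fold change and the shares of tested regions below follow a filter that this gene's region passed through the switched libraries alone. Its region, labelled fat body, had counts of 0, 9 and 0 in control replicates 1 to 3, against 10, 34 and 54 in switched replicates 1 to 3. In CPM the control libraries averaged 3.73 ± 6.46 and the switched libraries 28.7 ± 18.1 (SD, n = 3). Raw counts of every switched library were above those of every control library, by as little as 10 against 9, which was so at 14.4% of all tested regions of this table. After TMM scaling, where 10.7% of tested regions had every switched library above every control library, the groups at Xbp1 overlapped, at 11.2 CPM in control replicate 2 and 7.92 in switched replicate 1. As counts per 1000000 counts on the arms of a library (arm CPM) they overlapped too, at 112 and 76.6 (11.7% of tested regions on the arms stood apart). The 2 control libraries at 0 would allow up to 38.5 and 30.3 arm CPM (3 counts; counting error only). In switched replicates 2 and 3 the level was 338 and 364.

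The log2 fold change at Xbp1 was 2.92 ± 1.85 (SE), with an edgeR unadjusted p of 0.147 and an adjusted p of 0.984. The median of all 1674 tested regions was 0.25, and Xbp1 lay 2.67 above it. With library totals alone in place of TMM factors the median was 0.93 and Xbp1 lay 2.82 above it. Leaving out any library but one gave 2.30 to 3.37. Without control replicate 2 the remaining control counts are all 0, and the fitted 7.97 (adjusted p = 0.367) depends on the prior count. With DESeq2 the value was 3.06 ± 2.13, with an adjusted p of 0.912. edgeR called 0 regions of this table (0% of 1674), against 80 (4.78%) at an unadjusted p under 0.05, and DESeq2 called 53 (3.17%), without Xbp1. As a group the switched libraries had larger arm counts and a lower mitochondrial share (75.8% to 83.6%, against 84.4% to 88.6% in control). Switched replicate 3, with 148529 arm counts and 75.8% mitochondrial counts, had the highest level at Xbp1, 364 arm CPM. Switched replicate 2, with 100467 and 83.6%, stood at 338. Control replicates 1 and 3, with 77983 and 99026 arm counts, stood at 0. Switched replicate 1, with 130614 arm counts and 76.4% mitochondrial counts, stood at 76.6 arm CPM. Control replicate 2, with 80337 and 88.6%, stood at 112. The part of arm counts and mitochondrial share in the value at Xbp1 was not tested. With only chromosome arms fitted the log2 fold change at Xbp1 was 2.79 ± 1.90. Haemocyte, muscle and ovary markers, unlike Xbp1, lay higher in every switched than in every control library labelled fat body, as shares of arm counts. Each of these lists had only 1 gene with a region. The share was 0.0378% to 0.0653% against 0% to 0.0103% for haemocyte markers (eater, 1 of 4), 0.161% to 0.257% against 0.0263% to 0.0949% for muscle markers (sls, 1 of 4) and 0.107% to 0.151% against 0.00124% to 0.0244% for ovary markers (zpg, 1 of 3). In arm CPM, 11.7% of tested regions on the arms stood apart in the same direction. The groups overlapped for fat body markers, at 0.237% to 0.33% in switched against 0.0252% to 0.251% in control libraries. They overlapped too for gut markers, at 0.338% to 0.444% against 0.21% to 0.748%. Neuron and oenocyte markers had 0 regions in that table, and the part of any cell type in the value at Xbp1 was not tested.

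**Figure D2:**
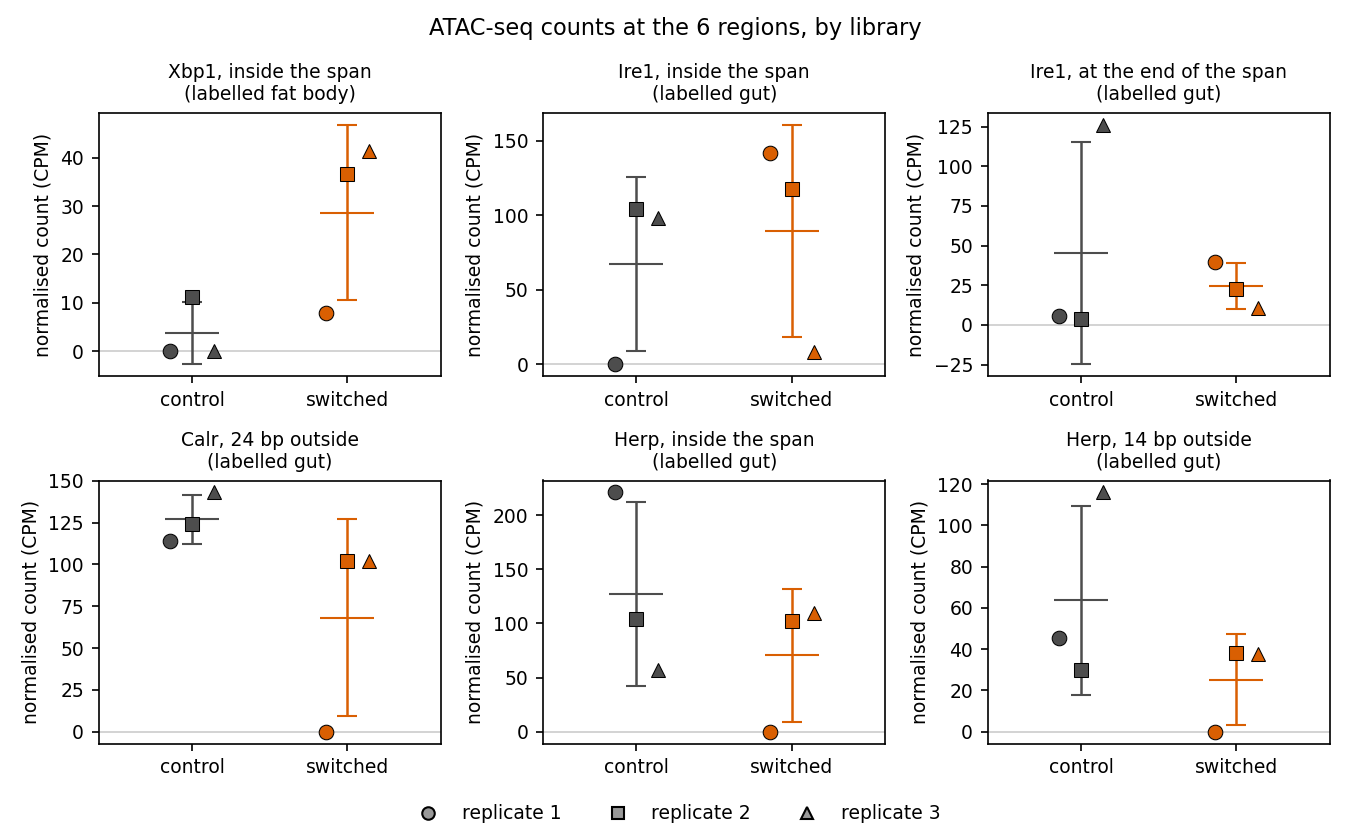
Normalised counts (CPM, TMM-scaled) at the 6 regions in each library, with a symbol per replicate number, a horizontal line at each group's mean and bars of 1 SD (n = 3). Control libraries are grey and switched libraries orange. Switched replicate 1 labelled gut lies at 0 at Calr and at both regions of Herp, and is the highest library at the region inside Ire1.

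Calr, the chaperone gene, had the smallest spread between control libraries of the 5 regions labelled gut, 14.8 CPM around a mean of 127 (SD, n = 3). Its control libraries, labelled gut, had 20, 62 and 58 counts, and its switched libraries 0, 67 and 38. In CPM the control libraries stood at 114, 124 and 143 and the switched libraries at 0, 102 and 102. Every switched library thus lay below every control library, as at 141 of all 1944 tested regions (7.25%). In arm CPM the groups overlapped, with 843, 653 and 528 in control and 0, 507 and 566 in switched libraries. Its log2 fold change was -0.87 ± 1.35 (edgeR adjusted p = 0.999), and -0.27 without switched replicate 1, the library at 0. That library had so few arm counts that 0 allows up to 190 arm CPM, below the level in each of the other 5.

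Herp, of the degradation machinery, had 39, 52 and 23 control counts at the region inside its span, and 0, 67 and 41 switched counts. The groups overlapped, with switched replicate 1 again at 0. That 0 allows up to 190 arm CPM, just below 209 in control replicate 3, the lowest of the other libraries. Inside the span the log2 fold change was -0.81 ± 1.37, and -0.19 without switched replicate 1. Without control replicate 1, at 221 CPM the highest library, it was -0.14. Between Herp and r2d2 the control libraries had 8, 15 and 47 counts and the switched libraries 0, 25 and 14. There the 0 of switched replicate 1 allows a level above control replicate 2 (158 arm CPM) and switched replicate 2 (189). It cannot be told apart from theirs. The counts overlapped between groups, and the log2 fold change was -1.29 ± 1.79. Without control replicate 3, the library with 47 counts, it was -0.44, and without switched replicate 1 it was -0.71. With both regions summed, Herp had control counts of 47, 67 and 70 and switched counts of 0, 92 and 55. The sum gave -1.08 ± 1.07, and -0.49 without switched replicate 1. The edgeR adjusted p was 0.999 for each region and 0.998 for the sum.

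In the table labelled gut 4 of the 5 member regions had a log2 fold change below 0, as did 59.2% of all 1944 tested regions. edgeR and DESeq2 called 0 of the 1944 (0%) and 0 of the 5, and 30 of the 1944 (1.54%) and 0 of the 5 had an edgeR unadjusted p under 0.05. Switched replicate 1 had 0 counts at 60.4% of all regions on the arms, against 9.47% to 33.5% in the other 5 libraries. Of the member regions it read only the pair at Ire1, and its 25 counts inside Ire1 amount to 1580 arm CPM, against at most 582 in the other libraries. Without both libraries numbered 1, a comparison of 2 against 2 chosen after seeing the data, the fold changes moved to -0.67 inside Ire1, -1.92 at its end, -0.39 at Calr, 0.40 inside Herp and -0.94 beside it.

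The 5 regions together held 0.193% to 0.287% of arm counts in control libraries labelled gut and 0.149% to 0.202% in switched libraries. The 95% Clopper-Pearson interval was 0.223% to 0.363% in the highest library, control replicate 1, and 0.121% to 0.181% in the lowest, switched replicate 3. The intervals hold counting error and nothing else, as copies made by PCR are not separate molecules. The ranges of both groups overlapped.

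Mean levels per length differed within the table labelled gut, with a spread between libraries that was mostly wide. In control flies the arm CPM per kb was 4530 ± 1060 at Calr, 4520 ± 4240 inside Herp, 3750 ± 1670 beside Herp, 2140 ± 3050 at the end of Ire1 and 1680 ± 1540 inside it (SD, n = 3). Each neighbouring pair in this order differed by less than its spread. In switched flies the order was different, with 4070 ± 4310 inside Ire1 first and 1620 ± 1400 beside Herp last, again within the spread. Over all 6 libraries, Calr stood at the 88.1st percentile of regions on the arms of that table, the Herp regions at 86.1 and 75.6, and the Ire1 regions at 80.4 and 65.4. The region of Xbp1 stood at 43.5 in the table labelled fat body, with 533 ± 924 arm CPM per kb in control and 3710 ± 2270 in switched flies.

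**Figure D3:**
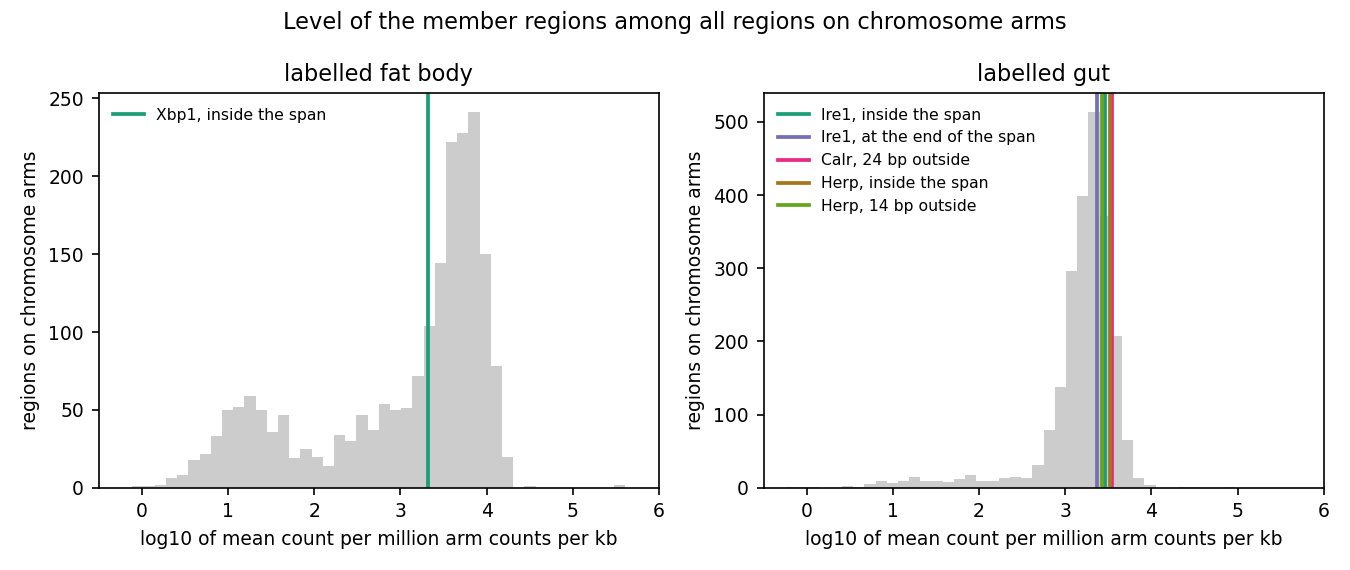
Histograms of the mean level of all regions on the chromosome arms (log10 of arm CPM per kb, mean of 6 libraries) in the tables labelled fat body and labelled gut, with a line at each member region. The 5 regions labelled gut fall between 2320 at the end of Ire1 and 3460 at Calr, and Xbp1 at 2120 in the other table.

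Other genes of the pathway were looked up in the same way, and their share with a region was not tested against that of all genes. Of 27 genes listed for the unfolded protein response and quality control in the endoplasmic reticulum, 1 had a region within 1000 bp in the table labelled fat body (3.7%, against 9.16% of 13962 protein-coding genes) and 2 in the table labelled gut (7.41%, against 16.3%). In neither table was there a region at the other 24. A gene without a listed region has no counts here, and its accessibility was not analysed. edgeR called 0 of the 3 genes with a region, in tables where it called 0% of genes.

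Gp93, the gene of an Hsp90-type chaperone of the endoplasmic reticulum, had control counts of 0, 29 and 12 and switched counts of 19, 49 and 30 labelled gut. Every switched library was above every control library in CPM (69.7 to 135 against 0 to 52.4), as for 5.22% of all genes tested there, and also in arm CPM, as at 5.9% of tested regions on the arms. The log2 fold change was 1.74 ± 1.54, and the edgeR adjusted p of 0.998 did not pass. Its region lay 552 bp outside Gp93 and overlapped mfrn by 6 bp. crc, which encodes the transcription factor ATF4, had regions shared with Mondo and CG46314. Their sum was 45, 168 and 42 in control libraries labelled gut and 12, 164 and 79 in switched libraries. The groups overlapped, at a log2 fold change of -0.41 ± 0.78 (edgeR adjusted p = 0.998), which turned to 0.14 without both libraries numbered 1. Sec61alpha, of the translocation channel, had a region 331 bp away that overlapped Daxx. Labelled fat body, its control counts were 5, 81 and 101 and its switched counts 80, 58 and 223, again with overlap, and with a log2 fold change of 0.41 ± 1.19 (edgeR adjusted p = 0.926). It turned to -0.07 without control replicate 1 and to -0.14 without switched replicate 3.

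The genes whose log2(CPM + 1) was most like that of a member over the 6 libraries of its table are given as a description. For Calr and Herp the first was SpdS and r2d2, each with a Pearson r of 1, since the same regions lie within 1000 bp of both genes. The next were CG16758 for Calr (r = 0.998) and CG46466 for Herp (r = 0.999). Like both members, these genes were at 0 in switched replicate 1 and read in the other 5 libraries. Of 1993 genes compared, 467 had an r above 0.9 with Calr and 438 with Herp. For Ire1 the genes were amn (r = 0.992) and GstT4 (r = 0.975), and for Xbp1 CG14422 (r = 0.984) and fbl (r = 0.982). CG14422 had control counts of 0, 32 and 0 and switched counts of 33, 87 and 92. These correlations describe points that share libraries and depth.

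**Figure D4:**
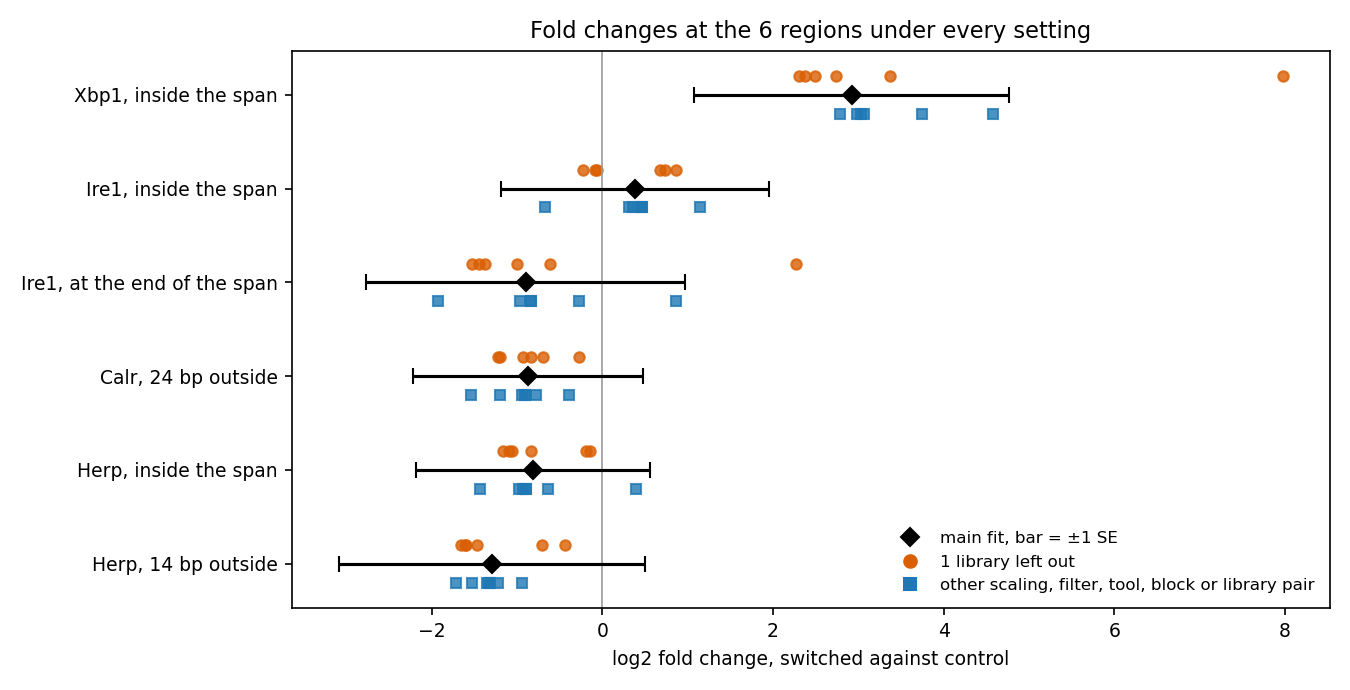
The log2 fold change of switched against control at each of the 6 regions, with the main value as a diamond with a bar of 1 SE. Circles leave out 1 library each, and squares use another scaling, filter, tool, block or library pair. At Xbp1 all values lie above 0, from 2.30 to 7.97, yet the main fit did not pass (edgeR adjusted p = 0.984). Its region passed the filter through the switched libraries alone, and 7.97 comes from control counts that are all 0. The bars of the 5 regions labelled gut cross 0.

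Since no member had a region in both tables, the difference of the effect of past induction between the tissues was not tested.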

How the data were processed

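For each tissue the authors deposited 1 table of raw read counts over regions. Trimmomatic, FastQC, featureCounts, MACS2 and DESeq2 are named, without versions, in the submitters' processing notes. Not given in the sources used here are the aligner, the genome build, pooling for peak calls, duplicate removal and any shift to the Tn5 site. Groups came from the titles, and every pair of libraries differed beyond counting noise.

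Regions were assigned by span to 13962 protein-coding genes of Release 6. Of the arm regions labelled gut 44.7% lay within 500 bp of a gene end, against 18.9% to 21.7% after shifts of 5 or 10 kb. Labelled fat body this was 14% against 12.5% to 13%, and 411 of its regions overlapped the other table against 15 to 21 after shifts.

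Each table was fitted whole with edgeR 4.0.16 in R 4.3.3 (filterByExpr, minimum count 10 and total 15; TMM; quasi-likelihood F test; Benjamini-Hochberg adjusted p under 0.05), and again with the regions of each gene summed. A standard error was the log2 fold change over the square root of F. DESeq2 1.42.0 was run on the same regions. Scripts were tested on simulated data. Recovery of changed regions was required only at a dispersion (variation between libraries) far below the fitted 1.4 labelled fat body and 1.38 labelled gut. At a dispersion like that of these data only the direction of change was required. The simulation therefore does not show how many changes these fits could find. The members, lists and tests were chosen with earlier results of these data known. Named genes were the 4 members, listed pathway genes with a region, the 2 most alike genes per member and neighbours within 1000 bp. Examples of tissue and cell type markers came from the marker lists.

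Deviations of same-numbered libraries from group means correlated at 0.26, 0.191 and 0.108 labelled gut, each over the bound of 0.1. By that bound this was taken as pairing, although no label states what a number stands for. The main fits hold no replicate block, and the fit with the block is given as an alternative. Unlike numbers correlated at -0.214 to 0.109, the highest being control replicate 3 with switched replicate 2. The libraries numbered 3 thus show no pairing beyond that of unlike numbers. Those numbered 1 were also the shallowest, whose part in these values was not tested.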

Additional observations from a re-analysis of the deposited data

How the results depend on the processing

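The 6 regions had 80 to 245 counts each over their libraries, and their fold changes carried a standard error of 1.35 to 1.87 on the log2 scale. No member region or pathway gene was called under any alternative run (adjusted p of at least 0.26). Of 165 fold changes under alternatives 152 kept their direction, and 7 of 13 results never turned. These results are not separate: Xbp1 and Calr had 1 region each, so their region and their sum are the same counts. Neither gene turned in any run. The replicate block turned the region at the end of Ire1 to 0.86, and changed no call in either table. Labelled gut, the block gave 0.36 ± 2.20 inside Ire1, -1.54 ± 1.47 at Calr, -0.98 ± 1.67 inside Herp and -1.72 ± 2.11 beside it. Labelled fat body, where the numbers do not pair the samples (same-numbered libraries correlated at 0.00426, -0.0254 and -0.0603), it moved Xbp1 to 4.58. Without both libraries numbered 1, the region inside Ire1 turned to -0.67, its sum to -0.99, the region inside Herp to 0.40 and the sum of crc to 0.14. Leaving out 1 library gave -0.23 to 0.86 inside Ire1, -1.53 to 2.27 at its end, -0.47 to 1.19 for its sum and -0.14 to 0.88 for Sec61alpha. These turns all lay within 1 SE of 0, except that of the sum of Ire1, and their cause was not tested. Over the table labelled fat body, edgeR without a filter called 19 regions and DESeq2 53, against 0. Restricting regions to those overlapping the span left 3 labelled gut, and widening it to 2000 bp gave 2 labelled fat body.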

Other observations

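The nearest region to Calr in the table labelled fat body lay beyond the 1000 bp used here, 1838 bp from Calr and inside SpdS, the spermidine synthase gene (3R, 9632689 to 9632794). It is given because of its values, and it passed the filter on low counts through the switched libraries alone. The bounds and p-values below therefore come from the same values that picked the region. All control libraries were at 0 there, and switched replicates 1 to 3 had 141, 18 and 276 counts. Set against a floor of 3 counts over the control group, this is at least 177-fold higher of library totals and at least 98.3-fold higher of arm counts, bounds that cover counting error only. Switched replicate 3 holds 276 of the 435 switched counts, and without it the bounds are 91.9-fold and 59-fold. Leaving out any other library, chosen after seeing the data as was this one, gave 115-fold to 263-fold of library totals and 60.5-fold to 128-fold of arm counts. The edgeR adjusted p was 0.189, 0.0244 without the filter on low counts and 0.146 to 0.641 under the other edgeR settings, and DESeq2 gave 6.91e-05. Every switched library was above every control library there, as at 10.7% of all tested regions of the table. In the table labelled gut SpdS had no region but the one beside Calr within 1000 bp, which did not pass.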
